A study of Sus scrofa with 36 samples.

Results

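The data describe the hippocampus of piglets fed a milk replacer to which no lactoferrin had been added, the baseline of a feeding study. These control arrays are 12 of 36, chosen by their feeding label, and within them 6765 named genes were ranked by the mean and the SD of their log2 values. A named gene has exactly 1 symbol in the array annotation and is read from its probe set with the highest mean over the 36 arrays. All piglets were male Landrace by Large White crosses from a commercial piggery, were 3 days old on arrival and were sampled at postnatal day 38. The control replacer held lactoferrin, an iron-binding milk protein, at a basal level that the labels do not quantify, and the other groups received 0.6 g/L (medium) or 1.2 g/L (high), with 12 arrays each. The labels do not say that littermates were avoided, so p-values measure the spread between these samples.

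The hippocampus is the cortical structure of spatial and episodic memory. Its dentate granule cells and the pyramidal cells of the CA fields are excitatory neurons, held in balance by GABA-releasing interneurons, and its fibre tracts are wrapped by oligodendrocytes, which are still adding myelin in a young piglet. Astrocytes supply and clear transmitters, and microglia are its resident immune cells. The dissected tissue touches choroid plexus, meninges and blood vessels. Total RNA from such tissue is an average over all of these cells, so more cells of a type and more RNA per cell cannot be told apart.

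Values of the 12 control arrays were deposited as log2 numbers with 1 decimal, and each array had a median of 6.6. Each correlated with the other controls at a mean r between 0.986 (replicate 10) and 0.992, and no columns were duplicates. The polyadenylated spike-in control Dap lay above log2 6 in 9 arrays and below it in 3 (replicates 7, 8 and 10). The descriptions give every sample a set code from S1 to S5, and nothing in the labels explains it. Replicates 1 and 2 were S1, 3 and 4 S2, 5 to 7 S3, 8 to 10 S4, and 11 and 12 S5. Arrays have no read depth, so precision is set by how many of them there are. A log2 value also depends on how well the probes of a set bind. Among 2261 genes with several probe sets, the means of the probe sets of a gene differed by a median of 1.9, and by over 1 in 73.2% of these genes. The ranks are therefore ranks of array signal and not of transcript copies.

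The strongest signals came from myelin, cytoskeleton, protein synthesis and glia. MBP, the basic protein that compacts the myelin sheath, ranked at the top with 14.56 ± 0.12 (SD, n = 12), from 14.3 to 14.7 with a median of 14.6. It was followed by UBB, a polyubiquitin gene, at 14.11 ± 0.12, by the glycolytic enzyme GAPDH at 14.05 ± 0.14 and by MT3, the brain metallothionein, at 13.90 ± 0.12. Next stood EF1ALPHA, an older symbol for the elongation factor that carries aminoacyl-tRNA, at 13.78 ± 0.06. The tubulin gene TUBA1B was at 13.61 ± 0.11 and the beta subunit of the sodium pump, ATP1B1, at 13.49 ± 0.18. A second myelin gene, MOBP, lay at 13.45 ± 0.18 between 13.2 and 13.7. Every array of every gene in this group of 30 lay at or above 12.7, whereas the median gene had a mean of 7.73.

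Ribosomal proteins made up 8 of the 30, with RPS18 at 13.65 ± 0.11, RPS20 at 13.58 ± 0.09 and RPS29 at 13.47 ± 0.08. Glial genes were SPARCL1, a secreted synapse-forming protein of astrocytes (13.32 ± 0.13), the chaperone CLU (13.28 ± 0.16) and SPARC, a matrix protein (13.27 ± 0.16). Neuronal genes were UCHL1, a neuronal deubiquitinase, at 13.10 ± 0.20, and APP, the amyloid precursor, at 13.15 ± 0.11. PTGDS, which makes prostaglandin D2 in meninges and oligodendrocytes, was at 13.09 ± 0.20, and the iron store FTH1 at 13.23 ± 0.08. The remaining members were HSP90AA1, ACTG1, TPT1, RPL32, DBI, RPS27A, RPS2, RPS19, PPIA, RPS23, ATP6V0C and AMY2. AMY2, the pancreatic form of amylase, was at 13.49 ± 0.16 through 1 probe set, while its other probe sets had means of 6.47 and 6.95, so this signal is uncertain as to its transcript. Such gaps occurred for other genes of the group. The other probe sets of MBP had means of 4.83 to 9.34 and those of ACTG1 4.99 to 10.38, and averaging all probe sets put MBP at 9.03 and ACTG1 at 7.90. ATP6V0C (13.08) was the last inside the group, and CALM2 (13.08), RPL17 (13.06) and RPS26 (13.06) were the next outside. In the 24 arrays of piglets given added lactoferrin, the same 30 genes held the top 30 places.

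**Figure D1:**
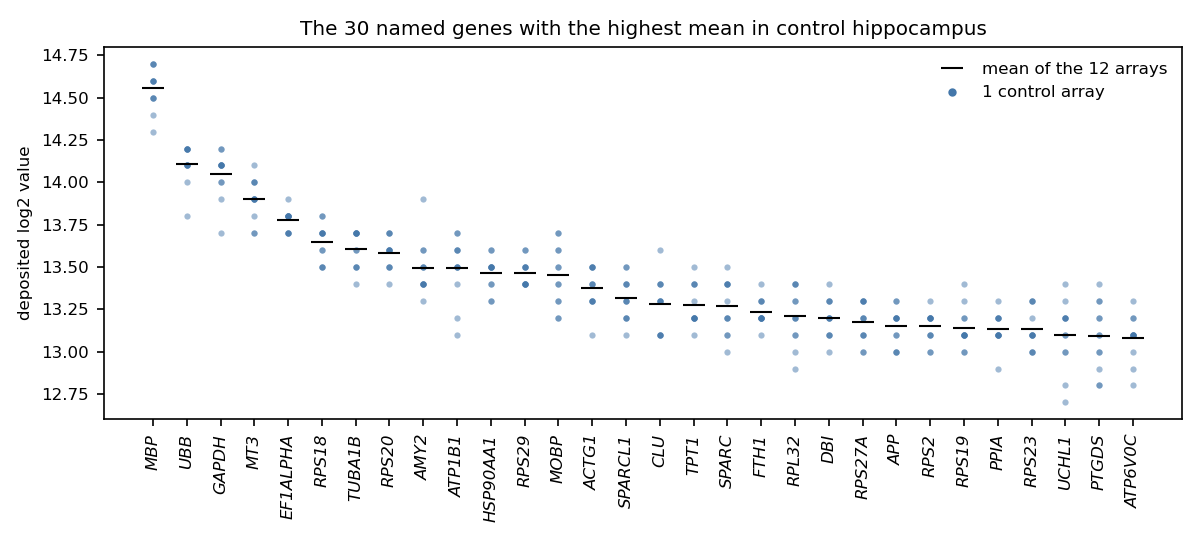
Deposited log2 values (vertical axis) of the 30 named genes with the highest control mean, with a point for each of the 12 control arrays and a bar for the mean. MBP stands at 14.56 and the last gene, ATP6V0C, at 13.08, and the arrays of a gene lie close together, with SDs from 0.06 for EF1ALPHA to 0.20 for UCHL1.

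Astrocyte, neuronal and myelin markers were mostly among the strong signals of the array. Near background means here a control mean at or below 4.9, the 25th percentile over 23999 probe sets, and 732 of the 6765 named genes (10.8%) lay there. The 16 measured astrocyte markers had a median level of 11.94, with GFAP, the astrocyte filament, at 12.73 ± 0.24 (12.3 to 13.2), the glutamine synthetase GLUL at 12.61 ± 0.20 and the glutamate transporter SLC1A2 at 12.08 ± 0.16. None of the 16 was near background. The 13 pan-neuronal genes had a median of 11.77, and 11 of them were in the top 10% of named genes. SNAP25, a membrane fusion protein of synaptic vesicles, was at 12.93 ± 0.16 (12.7 to 13.1), the growth cone protein STMN2 at 12.72 ± 0.17 and the dendritic MAP2 at 12.67 ± 0.21.

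Oligodendrocyte and myelin genes had a median of 11.10 over 15 members. Besides MBP and MOBP, the tight-junction protein of myelin CLDN11 was at 12.78 ± 0.30, transferrin (TF) at 12.56 ± 0.47 and OPALIN at 11.43 ± 0.44. The member near background was ASPA, the oligodendrocyte enzyme that splits N-acetylaspartate, whose only probe set read 2.88 ± 0.11 and was among the 30 lowest of the named genes. Precursor genes were lower, with OLIG1 at 11.06 ± 0.23, OLIG2 at 8.02 ± 0.25 and SOX10 at 6.03 ± 0.16. Interneuron genes were present too. Somatostatin (SST) was at 10.67 ± 0.34 from 10 to 11.1, the GABA-making enzymes GAD1 and GAD2 at 10.56 ± 0.33 and 9.46 ± 0.27, and cholecystokinin (CCK) at 10.02 ± 0.20. NPY lay at 8.24 ± 0.45, and CALB2, the gene of calretinin, at 5.29 ± 0.31.

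Excitatory neurons could hardly be checked by name. Of 18 markers listed, GRIN1, the obligatory subunit of NMDA receptors, was the single named gene, and its probe set read 4.76 ± 0.18, near background, with the other at 4.58. Subfield genes gave more. RGS14, a G protein regulator of CA2 pyramidal cells, was at 9.43 ± 0.46. The CA1 list had 4 measured genes with a median of 9.05, among them DKK3 at 10.76 ± 0.21 and LMO3 at 10.20 ± 0.33. The CA3 list had 4 as well, with CHGB, which is also in the pan-neuronal list, at 10.32 ± 0.26 and NNAT at 9.37 ± 0.49. Its median was 7.24, and its lowest member read 4.97, just above the near-background level. Of the dentate list, PDYN, the dynorphin precursor of granule cells, was at 8.73 ± 0.99, NEUROD1, a factor of newborn granule cells, at 6.52 ± 0.54 and the desmosomal DSP at 5.29 ± 0.19. Several genes that define other brain regions were low, among them the hypothalamic PMCH at 3.27 ± 0.13, POMC at 4.30 ± 0.13 and AGRP at 4.55 ± 0.09. Of the 12 measured, 4 were near background (33.3%, against 10.8% of all named genes), and the means had a median of 5.30 and reached 8.02. HCRT, the hypothalamic orexin precursor, nevertheless read 7.38 ± 0.19 and DDC 7.38 ± 0.24. Thus the neuronal, glial and some subfield markers were at high levels, and the pyramidal cell markers of the list were not measured by a named probe set apart from GRIN1.

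Immune and vascular cells gave weaker signals. The 13 microglia genes had a median of 7.86, with the lysosomal protein LAPTM5 at 10.26 ± 0.44, the ADP receptor P2RY12 at 9.91 ± 0.35 and AIF1 at 8.95 ± 0.30, and with ITGAM near background at 4.11 ± 0.10. Endothelial genes had a median of 7.02 over 14 members, led by the barrier protein CLDN5 at 9.44 ± 0.28. KDR (3.97 ± 0.21) and FLT1 (4.83 ± 0.23), both receptors of vascular growth factor, were near background. Among pericyte and smooth muscle genes RGS5 stood at 9.83 ± 0.29 and PDGFRB at 9.09 ± 0.25. Choroid plexus genes had a median of 6.30 over 7 members. Blood was detectable through HBB, the beta globin, at 9.12 ± 0.17 (8.9 to 9.4), while the granulocyte genes S100A8, S100A9 and S100A12 lay between 3.69 and 4.69.

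Lists of other organs had low medians, from 4.38 to 5.58. Near background were 9 of 13 striated muscle genes, 7 of 15 liver genes, 5 of 9 pituitary genes, 6 of 14 reproductive genes, 4 of 8 gut genes, 3 of 8 pancreas genes, 4 of 14 genes of skin, airway and glands, and 2 of 6 of kidney, thyroid and bone, against 10.8% of all named genes. Members that stood out were APOA1, a lipoprotein of liver and gut, at 11.62 ± 0.30 (11.1 to 12.2), and KRT10, a skin keratin, at 9.18 ± 0.32. Of the genes tied to the diet, LTF, which encodes lactoferrin, read 4.60 ± 0.30 (4.2 to 5.3), near background, and the transferrin receptor TFRC 4.92 ± 0.17. BDNF, the neurotrophin of synaptic plasticity, was at 8.82 ± 0.23 (8.4 to 9.3). The immediate early gene FOS, which neuronal activity switches on, ranged from 5.9 to 7.5 with a median of 6.7, and EGR1 from 7.0 to 8.9 with a median of 8.05.

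**Figure D2:**
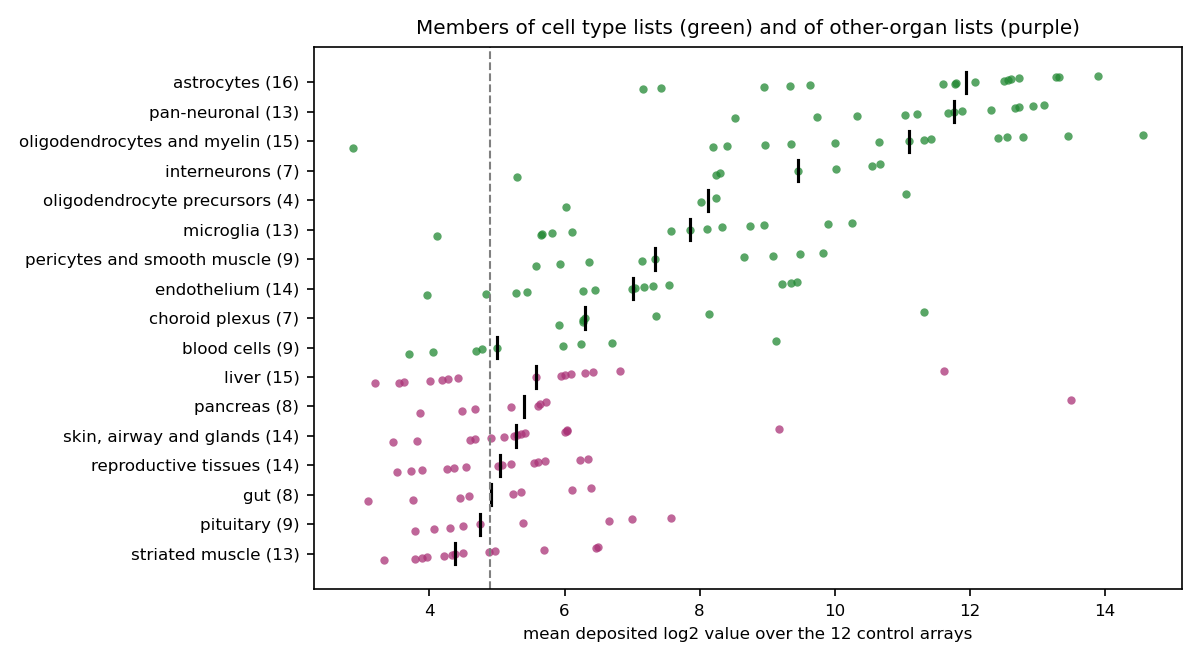
Mean log2 value over the 12 control arrays (horizontal axis) of each measured member of cell type lists (green) and other-organ lists (purple), with the number of members in brackets, a black bar at the list median and a dashed line at the near-background level of 4.9. Medians run from 11.94 for astrocytes to 4.38 for striated muscle, and AMY2 (13.49), APOA1 (11.62) and KRT10 (9.18) lie far to the right of their lists.

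Families for the basic running of a cell formed the dense upper end. Of 60 ribosomal protein genes, 57 were in the top 10%, with a median of 12.38. RPL26 (4.15), RPL30 (4.68) and RPS15A (4.28) were near background instead. Ribosomal probes can bind near-identical family members and pseudogene transcripts, so single members are uncertain. Oxidative phosphorylation had a median of 10.71 over 41 genes, led by ATP5A1 at 12.70 ± 0.18 and COX6C at 12.42 ± 0.08. Translation factors had a median of 10.88 over 21 genes and glycolytic enzymes 11.04 over 14. TUBA1A, the main neuronal alpha tubulin, read 4.11 ± 0.17 while its relative TUBA1B read 13.61, and these tubulins share most of their coding sequence. The lowest means among the named genes belonged to LOC396867 (2.70 ± 0.09), the Wnt antagonist DKK1 (2.73 ± 0.15), the lymphocyte adaptor SH2D1A (2.77 ± 0.10), the stem cell factor ZFP42 (2.79 ± 0.14) and TNFAIP6 (2.80 ± 0.09). Also among the lowest 30 were DMRT1, a testis factor, the oestrogen sulphotransferase SULT1E1, the enamel proteins AMELX and MMP20, the muscle factor MYF5 and the chemokine CXCL8. HNMT, which breaks down histamine, was there as well at 2.87 ± 0.14. The 5 genes just outside these 30 had means of 3.04 to 3.05, and at the near-background threshold EMB and STEAP1 lay just inside at 4.90 and JUP just outside at 4.91.

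Most genes hardly varied from piglet to piglet. The median SD was 0.16, and 113 genes (1.67%) exceeded 0.5 while 684 (10.1%) were under 0.1, the step to which values were rounded. When the genes were cut by mean level into 10 bands of about equal size, the median SD was 0.16 in the lowest band, 0.18 in the third and 0.15 in the highest. The third band, with means from 5.85 to 6.57, held 11 of the 30 most variable genes. In the highest band, with means from 10.24 to 14.56, were 0 of these and 8 of the 30 least variable.

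Interferon-stimulated and antigen-presenting genes led the variable end. RSAD2, the antiviral enzyme viperin, had the largest SD, 1.66, around a mean of 6.30. Its values in replicates 1 to 12 were 6.2, 4.9, 4.7, 5.8, 6.3, 5.5, 4.7, 9.6, 7.6, 7.1, 8.7 and 4.5, so that replicates 8 to 11 stood above the other 8 without overlap. GBP1, an interferon-induced GTPase, followed with an SD of 1.56 and values of 6.5, 6.5, 6.1, 6.8, 7.7, 9.2, 6.6, 9.8, 9.7, 9.1, 9.8 and 6.1. Here replicate 6 lay within the range of replicates 8 to 11. ISG15, a ubiquitin-like protein attached to others in antiviral defence, ran from 7.5 to 11.3 with a median of 8.35 (SD 1.31), and its remover USP18 from 6.4 to 10.1 with a median of 6.95 (SD 1.23). Both were highest in replicate 8 and next highest in replicate 11.

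Other members of this group were highest in replicate 9. UBD, a ubiquitin-like tag induced by cytokines, read 9.2 there, 7.9 in replicate 10 and 4.8 to 6.7 in the other 10 arrays (SD 1.37). SLA-DRA, the alpha chain of class II antigen presentation in pigs, read 8.9 in replicate 9 against 5.3 to 7.8 elsewhere (SD 1.12). CCL2, the chemokine that draws monocytes, read 7.9 in replicate 9 and 7.2 in replicate 11, against 5.1 to 6.2 elsewhere (SD 0.83). PLAC8 read 9.1, 9.3 and 9.2 in replicates 8, 9 and 11 and 5.5 to 8.0 in the others (SD 1.37). ISG12(A) (SD 1.09), IFIT1 (0.99), IFIT3 (0.98), IFI44L (0.93), TNFSF10 (0.87) and OAS1 (0.86) completed the immune members. OAS1, a sensor of double-stranded RNA, followed a pattern of its own, with 9.0 in replicate 11, 7.7 in replicate 10 and 6.0 in replicate 8, where RSAD2, ISG15, USP18 and IFIT1 peaked.

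The list of interferon response and antigen presentation genes was chosen with the spread of such genes known, so its place in the ranking is a description. All 27 of its measured members were in the top 10% of named genes by SD, and 10 were among the 30 most variable. The mean of the 27 was 8.85 in replicate 8, 8.69 in 9, 8.29 in 10 and 8.89 in 11, and 7.13 to 7.56 in the other 8 control arrays. In replicates 9 and 11 all 27 genes lay above their own control median, in replicate 10 26 and in replicate 8 25, compared with 15 in replicate 1 and at most 9 in any of the others. These arrays belong to S4 (8 to 10) and S5 (11), and the other S5 array, replicate 12, had a mean of 7.13. Dap was absent in replicates 8 and 10 and present in 9 and 11. Replicate 7, which lacked it too, had a mean of 7.25. The microglia mean was 7.18 in replicate 8, the lowest of the controls, and 8.05 in replicate 9, the highest, with 7.68 in replicate 10 and 7.46 in replicate 11. Over the 12 controls the relation of the microglia and interferon means did not pass (permutation p = 0.387, adjusted p = 0.387). In the 24 lactoferrin arrays r was 0.694 (permutation p = 0.00017, adjusted p = 0.00136), rho was 0.814, and r was 0.676 without medium replicates 11 and 12 and 0.459 after centring within set codes. The permutations ran across set codes, between which the interferon means of these arrays differed. The p-value is therefore no test of the relation within set codes.

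Arrays with high interferon means also occurred among the piglets given lactoferrin. Their 24 list means ran from 6.82 to 8.92 with a median of 7.12, and those of the controls from 7.13 to 8.89 with a median of 7.42. In S4 the group mean was 7.35 over 3 medium arrays and 8.22 over 3 high arrays (7.09 to 8.92), in S5 7.74 and 8.33 in the medium arrays and 8.25 in the high array, and in S2 and S3 6.82 to 7.69 over both doses.

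**Figure D3:**
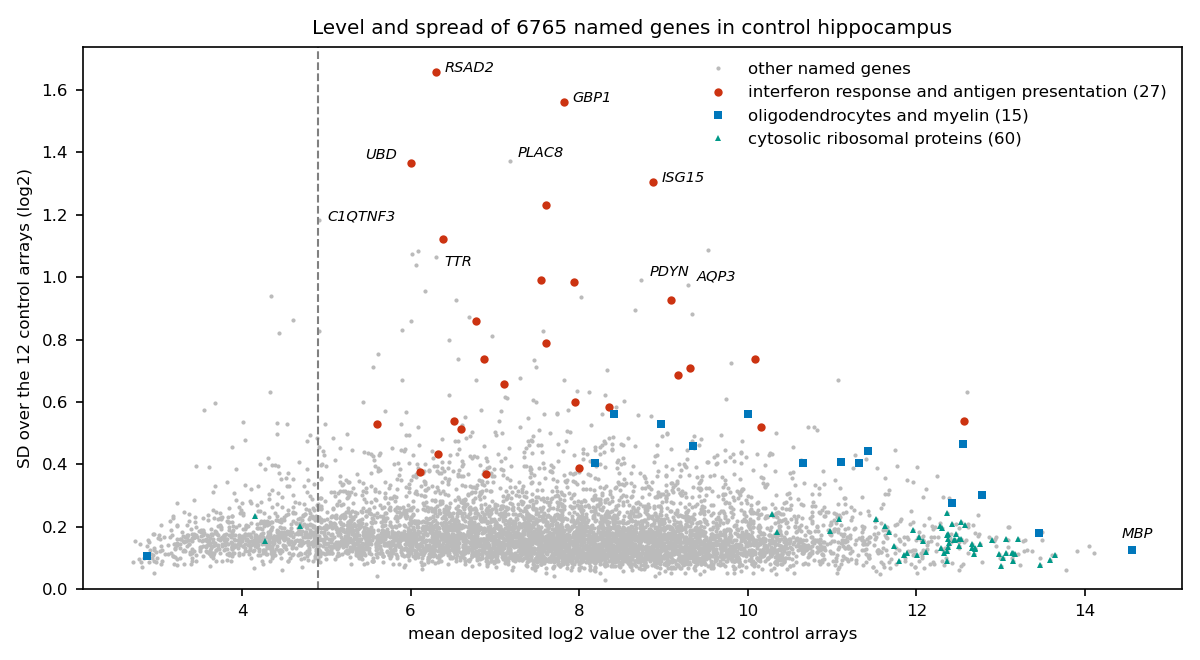
SD over the 12 control arrays (vertical axis, log2) against mean log2 value (horizontal axis) for 6765 named genes in grey, with 27 interferon response and antigen presentation genes in red, 15 oligodendrocyte and myelin genes in blue and 60 ribosomal protein genes in green, and a dashed line at the near-background level of 4.9. The interferon genes reach from an SD of 0.37 to 1.66, whereas the ribosomal genes stay at or below 0.24.

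Of 3 genes with placeholder names, LOC100519098 read 7.1 to 7.7 in replicates 8 to 11 and 5.0 to 6.3 in the others. LOC100524999 was highest in replicates 9 to 11 (7.8, 8.2 and 7.0), and LOC100523870 in replicates 9, 10 and 6 (7.9, 7.9 and 7.7). Most of the remaining genes had their high values in other arrays. C1QTNF3, a secreted relative of adiponectin, read 7.9 in replicate 4 and 6.7 in replicate 10 and 3.9 to 4.9 in the other 10 (SD 1.18, mean 4.91). PERP, a membrane protein of cell junctions, had separate levels, with 7.7 to 7.8 in replicates 4, 6 and 12 and 4.9 to 5.7 in the other 9, and no array between. SAL1, the porcine salivary lipocalin that carries pheromones, showed such a gap as well, with 7.6 to 7.8 in replicates 4, 5 and 11 and 5.0 to 6.0 in the others. AQP3, a channel for water and glycerol, ran from 7.8 to 10.6 with a median of 9.55 and no wide gap (SD 0.98).

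Genes tied to a place in the tissue were among the variable ones too. TTR, the thyroid hormone carrier made by choroid plexus, was at 8.2 in replicate 10, 8.0 in replicate 8 and 7.3 in replicate 6, against 5.1 to 6.9 in the others (SD 1.06). The mean of the 7 choroid plexus genes was highest in replicates 10 (7.73) and 8 (7.61) and lowest in replicate 2 (7.11). TTR is part of this mean and was picked for its spread, so the match with TTR is partly fixed and is no separate finding. None of the 7 was near background, against 10.8% of all named genes, but 7 genes are too few to tell from that share. Their median of 6.30 lay below that of all named genes, 7.73. The relation of the choroid plexus mean with the pan-neuronal mean did not pass in controls (r = -0.327, permutation p = 0.3, adjusted p = 0.343). In the 24 lactoferrin arrays r was -0.672 (permutation p = 0.00057, adjusted p = 0.00228), and -0.285 without high-dose replicates 1 and 2. Spearman's rho there was -0.503 (permutation p = 0.0127, adjusted p = 0.0338). The part of choroid plexus in other results was not tested. PDYN read 6.2 in replicate 10 and 7.4 in replicate 4 and lay between 8.8 and 9.8 in the other 10. ACTA2, the actin of vascular smooth muscle, read 10.7 in replicate 6 and 7.3 to 9.5 elsewhere (SD 0.90). CARTPT, a neuropeptide precursor, ran from 8.1 to 10.8 with a median of 9.25 (SD 0.88), and ALDH1A1, which makes retinoic acid, from 6.1 in replicate 10 to 9.7 in replicate 2 (SD 0.94). Further members were MMP1, MC4R, AGXT2 and DCN. DCN was the last inside the group (SD 0.83), and FAP (0.83), CPS1 (0.82), MGP (0.81) and ALOX15 (0.80) were the next outside.

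**Figure D4:**
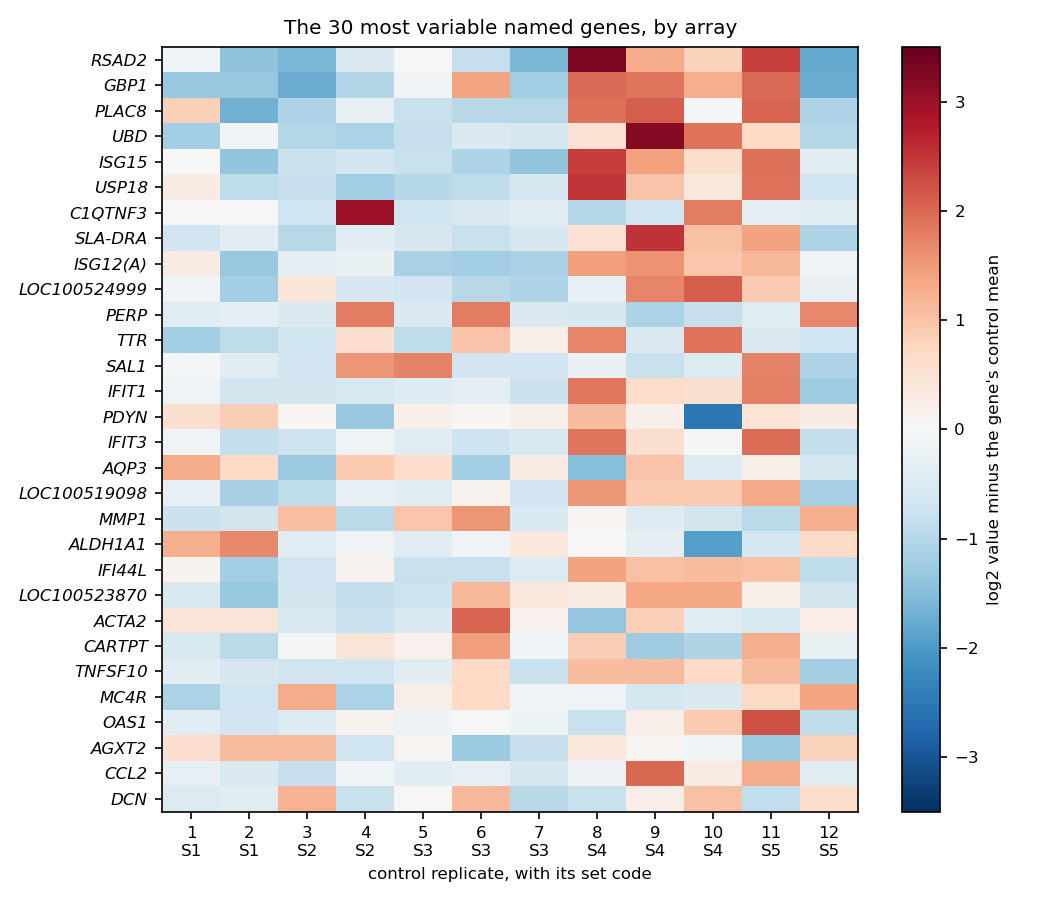
The 30 most variable named genes (rows, by decreasing SD) in the 12 control arrays (columns, with set code), coloured by log2 value minus the control mean of the gene. RSAD2, ISG15, USP18, IFIT1 and IFIT3 are reddest in replicates 8 and 11, UBD and SLA-DRA in replicate 9, while C1QTNF3 stands out in replicate 4 and PDYN is lowest in replicate 10.

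Single arrays stood apart in groups of genes, and whether this came from the animal, the dissection or the array was not tested. The mean of the 15 oligodendrocyte and myelin genes was 11.25 in replicate 4 and 10.04 in replicate 3, with 10.21 to 10.89 in the other 10 arrays. Of these genes 13 were highest in replicate 4 and 11 lowest in replicate 3, ties counted in each array. ERMN, a cytoskeletal protein of mature oligodendrocytes, read 9.7 in replicate 4 and 7.8 in replicate 3. The mean of the 13 pan-neuronal genes went the other way, with 11.08 in replicate 4, 11.82 in replicate 3 and 11.35 to 11.70 elsewhere, and 9 of the 13 were lowest in replicate 4. Over the 12 controls the myelin and neuronal means were related by a Pearson r of -0.824, with a permutation p of 0.00138 and an adjusted p of 0.011 over 8 relations. Spearman's rho was -0.727 (permutation p = 0.0099, adjusted p = 0.0655), so the rank relation did not pass. Pearson's r was -0.728 without the 2 arrays farthest from the median (replicates 1 and 4), -0.855 after centring within set codes, and -0.668 without replicate 4 (adjusted p = 0.104), which ended the call. In the 24 lactoferrin arrays r was -0.763 (permutation p = 0.00127, adjusted p = 0.00339), and -0.752 after centring within set codes. Spearman's rho there was -0.544 (permutation p = 0.00676, adjusted p = 0.027), so over all 24 the rank relation passed. Pearson's r fell to -0.294 without high-dose replicates 1 and 2, so its size rests on these arrays.

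Replicate 4 also had the lowest mean of 12 immediate early genes, 6.74 against 6.97 to 7.49 in the others, and 8 of the 12 were lowest there. Replicate 6 stood out for vessels. Its pericyte and smooth muscle mean was 8.33 against 7.47 to 7.89 elsewhere, with the contractile protein TAGLN at 8.8 against 6.4 to 7.6, and its endothelial mean was 7.24 against 6.69 to 7.07. Endothelial and pericyte means were related by a Pearson r of 0.805, with a permutation p of 0.00367 and an adjusted p of 0.0147. Spearman's rho was 0.687 (permutation p = 0.0164, adjusted p = 0.0655). Without replicates 6 and 9, the farthest from the median, r was 0.328, so the relation rests on these arrays. Without replicate 6 alone it was 0.555 (adjusted p = 0.298), and in the 24 lactoferrin arrays it was 0.244 (permutation p = 0.251, adjusted p = 0.323). The other 6 relations did not pass in the controls, with adjusted p from 0.288 to 0.387. Those with the excitatory neuron list rested on GRIN1 alone, which was near background, so they could not show a relation of that cell type. Microglia with interferon genes had the adjusted p of 0.387, and its pooled r is not read here because the interferon means of the controls fell into separate clusters.

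Replicate 9 was highest for 11 of 13 microglia genes and for 10 of 14 complement and acute phase genes. CTSS, a protease of antigen-presenting cells, read 9.9 there against 7.6 to 9.1 elsewhere, P2RY12 10.6 against 9.3 to 10.3, and the complement component C4A 9.0 against 6.5 to 8.5. A rule chosen after the values were seen collected genes in which 1 control array stood apart from the other 11, by a range of at least 1.5 and a gap of at least 40% of it. It took 49 of the 6765 genes (0.724%), of which 15 were set apart by replicate 4, 14 by replicate 10 and 11 by replicate 9. In replicate 9 these included CXCL9, a chemokine induced by interferon gamma (5.9 against 4.1 to 4.6), CD8A, a co-receptor of cytotoxic T cells (5.2 against 3.4 to 4.1), CCL5, a T cell chemokine (6.5 against 4.8 to 5.4), and CPS1 (6.9 against 3.7 to 4.7). The T cell receptor subunit CD3D, in contrast, had an SD of only 0.18 around 6.25, and CD3E was near background at 4.78 ± 0.17. In replicate 10 it was 12 genes that were set apart as lowest, among them NNAT (8.0 against 9.1 to 9.9) and FHL2 (8.1 against 9.2 to 9.8). Replicate 10 was also the array of lowest correlation with the other controls and lacked Dap, and the part of either in these values was not tested.

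**Figure D5:**
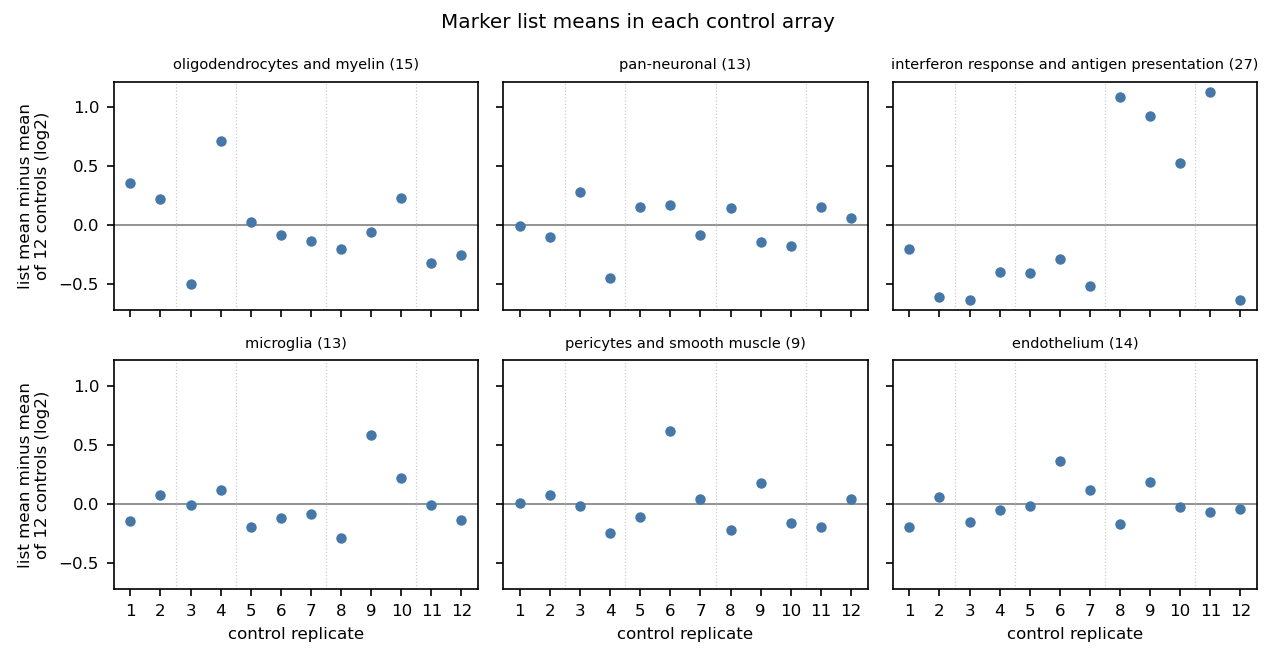
Mean of each marker list in each control array minus its mean over the 12 controls (vertical axis, log2), with the number of genes in brackets and dotted lines between set codes. Interferon means are high in replicates 8 to 11, the myelin mean peaks in replicate 4 where the neuronal mean is lowest, the microglia mean peaks in replicate 9 and the smooth muscle and endothelial means peak in replicate 6.

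The least variable genes differed by at most 0.2 between arrays. AUP1, a protein of lipid droplets and protein degradation, had the smallest SD, 0.03, around 8.31, with 8.4 in its highest array and 8.3 in its lowest. CTTN, an actin-binding protein, had 8.90 ± 0.04, the cap-binding EIF4E2 7.70 ± 0.04, and SET, a histone chaperone, 11.57 ± 0.05. Next were CHTOP, PIAS1, NUCKS1, the mitochondrial chaperone HSPA9, SSB and the poly(A) polymerase PAPOLA, each at 0.05. CTNNB1, the beta-catenin of junctions and Wnt signalling, was at 11.52 ± 0.06, the kinesin KIF5C at 12.50 ± 0.06 and TOP2B at 9.92 ± 0.06. EF1ALPHA closed the group, and the 5 genes just outside it had the same SD of 0.06. The 12 common reference genes ranged widely in spread, from an SD of 0.06 for TOP2B to 0.54 for B2M. GAPDH had an SD of 0.14, ACTB of 0.15 (mean 12.08) and PPIA of 0.10, whereas B2M, the light chain of class I antigen presentation, ran from 12.0 to 13.7. Steps of 0.1 in the deposited values limit the order of such small SDs.

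Variable genes were largely the same in the other piglets. Most of the steady genes also had low SDs there, but the lowest 30 were not the same genes. Of the 30 most variable control genes, 22 were also among the top 30 by SD in the 24 lactoferrin arrays, and 30 among the top 300. Their median SD was 0.99 in control and 0.78 in lactoferrin arrays, and 27 had the larger SD in controls, as a choice on control values favours. Of the 30 least variable genes only 1 was among the lowest 30 in the lactoferrin arrays and 19 were in the lowest 10%. Their median SD was 0.05 in control and 0.10 in lactoferrin arrays. MC4R, the melanocortin receptor, had an SD of 0.86 in controls and 0.40 in the lactoferrin arrays, and CCL2 0.83 and 0.47, whereas AQP3 had 0.98 and 1.24.

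Whether control piglets varied more was asked with limma on the absolute distance of each value from its group mean. No probe set of 18006 passed an adjusted p of 0.05 (0.0%, smallest adjusted p = 0.718), and 933 were at unadjusted p under 0.05. Of all probe sets, 3.74% were wider and 1.44% narrower in controls at unadjusted p under 0.05, and 56.5% were wider by any amount. Interferon genes were wider in controls in 24 of 27, with 5 at unadjusted p under 0.05, and oligodendrocyte genes in 13 of 14, with 1. For the 30 most abundant genes, chosen by level and not by spread, these counts were 18 and 1. By the SD itself, 25 of 27 interferon genes and 8 of 15 oligodendrocyte genes (53.3%) were more variable in controls. Over all named genes this share was 51.4%, so the oligodendrocyte count lay near it. The interferon list was chosen with its spread known, and genes ranked by their control SD are not counted here because the ranking fixes part of the answer.

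Levels in controls were set against the mean of both lactoferrin groups, with the set code as a block. In limma no probe set passed (0.0%, smallest adjusted p = 0.805), and 1028 were at unadjusted p under 0.05. Higher in controls at that level were 2.68% and lower 3.03%, and 49.7% lay above 0. CD55, which protects cells from complement, had the smallest unadjusted p. Its mean was 5.61 ± 0.38 (SD, n = 12) in controls and 5.18 ± 0.34 (n = 24) with lactoferrin, a difference of 0.44 (SE 0.12, 95% interval 0.20 to 0.68, limma p = 0.000598, adjusted p = 0.805), and 3 of 24 lactoferrin arrays lay above the control median. For DCN, the matrix proteoglycan decorin, the difference was 0.78 (SE 0.24, limma p = 0.00258, adjusted p = 0.805), and for FKBP1A, which binds the drug FK506, it was -0.20 (SE 0.05, limma p = 0.000862, adjusted p = 0.805). Of the 30 most abundant genes 0 were at unadjusted p under 0.05. Interferon genes were above 0 in 27 of 27, with a median difference of 0.32, 9 of them at unadjusted p under 0.05. Microglia genes were above 0 in 12 of 12 (median 0.17, 6 at that level) and complement genes in 11 of 11 (median 0.20, also 6), beside a median of 0.00 over 6034 named genes tested. None of these genes passed over all probe sets. Interferon members were mostly high together in the same control arrays, and most microglia and complement members were highest in replicate 9. Members of a list are thus not separate findings, and these counts are descriptions. The lists were chosen with earlier results of these data known. Replicate 9 was the control array with the highest microglia and complement means, and replicates 8 to 11 had the highest interferon means.

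The set codes were then compared in the 24 lactoferrin arrays, which the ranks did not use. Of 18006 probe sets 16 passed an adjusted p of 0.05 in limma (0.0889%), and 14.2% were at unadjusted p under 0.05. Among the 27 tested of the 30 most variable control genes, 19 were at unadjusted p under 0.05, and 1 passed, IFIT1 (limma p = 3.4e-05, adjusted p = 0.0444). RSAD2 had an adjusted p of 0.0584 and OAS1 of 0.0665, while PERP, TTR, AQP3 and ALDH1A1 had unadjusted p from 0.568 to 0.847. The interferon list was chosen with earlier results of these data known. Its members were mostly high together in the same control arrays, so they are not separate findings and their count is a description. Of 27 interferon genes, 23 were at unadjusted p under 0.05. In settings that tested the same number of genes, this count ran from 20 to 24, and that for the most variable genes from 15 to 20. With the filter at the 50th percentile they were 16 of 18 and 11 of 14. Among the lactoferrin arrays, S1 held only high-dose replicates 1 and 2. Leaving out either of them left S1 with 1 array, so the calls of those fits are not read here. The number of probe sets that passed was less steady, with 88 without high-dose replicate 9 and 0 without the S1 or the S2 arrays. The meaning of the set codes is unknown, so what differs between them cannot be named.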

How the data were processed

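RNA of 36 piglet hippocampi was measured on Affymetrix porcine arrays. The authors deposited log2 values to 1 decimal. The submitters' processing notes name RMA and the software Affymetrix Expression Console, version 1.1. RMA sets arrays to a common distribution, so shifts of all transcripts together cannot be seen. The table holds 23999 probe sets and 124 array controls, which were left out. The platform annotation, which can be old, gave 1 symbol to 10069, several to 198 and none to 13732, and 9961 matched RefSeq (Sscrofa11.1) by gene ID. Of 826 list symbols, 3 were matched by synonym. Each rank group holds 30 genes.

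Probe sets below the 25th percentile (log2 4.92) over 36 arrays were not tested, which left 18006. Tests used limma 3.58.1 in R 4.3.3, with lmFit, eBayes and Benjamini-Hochberg at 0.05, two-sided. Relations between list means used 100000 permutations in Python 3.11.15 with numpy 2.4.6. Code was tested on simulated data. Named were the 4 rank groups and the 5 genes beside each threshold, cell type markers, up to 5 highest and 3 most variable members of each list, up to 10 genes with the smallest p per direction, and a short fixed set with BDNF, LTF and FOS. Alternatives covered normalization, probe set choice, filters, blocks and left-out arrays. Members and lists were chosen with earlier results of these data known. Replicate numbers did not pair the arrays. No sequences were used here.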

Additional observations from a re-analysis of the deposited data

How the results depend on the processing

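Of the 30 most abundant genes, 28 to 30 were kept when 1 control replicate was left out, and 18 when all probe sets of a gene were averaged. Of the 30 most variable, 26 to 30 were kept without 1 replicate and 18 by median absolute deviation. The least variable group was unstable. It kept 19 to 26 without 1 replicate (19 without replicate 4), 19 after quantile normalization, 13 among arrays that held the spike-in, 11 with averaged probe sets, 8 within set codes, 6 by median absolute deviation and 1 in the lactoferrin arrays. Near background were 193 genes at the 10th percentile and 2057 at the 50th, and 728 to 738 without 1 replicate.

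The myelin and neuron relation lost its call without replicate 4 (r = -0.668), with -0.87 at the other end when 1 replicate was left out, and the endothelium and pericyte relation without replicate 6 (0.555), without replicate 9 (0.795) and among arrays that held the spike-in (0.807). The relation of microglia with interferon genes changed sign within set codes (-0.0115) and without replicate 9 (-0.0778), and was 0.598 without replicate 8. Without 1 replicate the endothelium and pericyte relation reached up to 0.877. Level differences gave 0 calls in all 51 alternatives, and spread differences 1 without S2 and 0 in the others. The set code count of 16 was 4 after quantile normalization, 27 after median centring, 39 without a filter, 4 with a filter at the 50th percentile, 0 with 1 probe set per gene, 7 with the spike-in control as a block, and 0, 0, 5, 76 and 2 without S1 to S5. It ran from 1 to 2196 without 1 array.

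Replicate numbers are shared by the groups, but same-number arrays did not deviate together (median r 0.0006 over 36 pairs, from -0.447 to 0.306), and 2 arrays were closest to their own number. With a replicate block, 0 probe sets passed for level, with 993 at unadjusted p under 0.05, or 809 with the set block as well, and 0 for spread, with 953. The block changed no call. Of 2467 values of single genes under other settings, 2427 were counted as unchanged. For a mean this required a move smaller than the SD between arrays, and for an SD a move smaller than its approximate standard error. For a fitted difference it required only the same sign and an adjusted p not under 0.05. None of these differences had passed in the main fit, so for them the count says little about stability. With averaged probe sets the SD of GBP1 was 1.08 and that of DCN 0.41.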
